A study of Mus musculus with 8 samples.

Results

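Bone morphogenetic proteins (BMPs) and TGF-beta are related secreted ligands that signal through pairs of type I and type II receptor kinases. The receptors phosphorylate Smad proteins, which enter the nucleus with Smad4, and the BMP branch switches on the inhibitory Smads and the inhibitor of DNA binding (Id) genes, whose products block basic helix-loop-helix transcription factors. FSTL1, a secreted glycoprotein related to follistatin and SPARC, has been described as a BMP antagonist, so the question addressed here was whether genes of this pathway, above all its Id and inhibitory Smad readouts, moved when macrophages were given recombinant FSTL1.

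The genes examined were 10 members of the pathway, found by their symbols among 22013 genes: the ligand Tgfb1, the receptors Tgfbr1, Tgfbr2, Bmpr1a and Bmpr2, the inhibitory Smads Smad6 and Smad7, and Id1, Id2 and Id3. They were measured by RNA-seq in RAW264.7, a macrophage-like cell line from mouse that was established from a tumor induced by Abelson murine leukemia virus, so that a single transformed line stands for macrophages here. One group received PBS (4 libraries) and the other rFSTL1 at 100 ng/mL for 24 h (4 libraries), and the labels name no BMP or TGF-beta ligand in either. Nothing in the labels says whether the libraries of a group came from separate cultures, so the p-values measure the spread between these libraries, which may be technical.

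The libraries held 15062023 to 20234477 estimated counts. The 10 macrophage markers checked were all measured, with a sum of 4817 to 4968 CPM (CPM being the count relative to the library total, scaled by edgeR's TMM factors) under PBS and 4924 to 5059 CPM under rFSTL1. Adgre1, which encodes F4/80, was low at a mean of 3.54 CPM. The marker lists of fibroblasts, epithelial, endothelial, T and B cells each summed to at most 1.09 CPM in any library. Of these markers Pdgfra, Epcam, Cdh1, Cd3e, Cd3d and Ms4a1 had 0 counts in every library, and the others had counts in some library. Among those were the endothelial Cdh5, with 2 to 11 counts in a library, and Pecam1, with 0 to 12. Cd79a reached 5 counts and Cd4 reached 2. The fibroblast list reached 0.972 CPM in the PBS group and 0.105 CPM in the rFSTL1 group, with most of its counts in PBS replicates 1 and 2. The rFSTL1 libraries differed from each other more than the PBS libraries did, since comparing the counts of any 2 of them gave a chi-square of 4.52 to 19.1 for each degree of freedom, against 3.03 to 4.21 for the PBS libraries. The widest gap lay between rFSTL1 replicates 2 and 4, each of which was the lowest or the highest rFSTL1 library for 8 of the 10 genes. PBS replicate 2 was likewise the lowest or the highest PBS library for 8 of them. Fold changes without either of the 2 rFSTL1 libraries are given for each of the 10 genes, and those without a PBS library where that changed the sign.

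All 10 genes passed the filter on low counts and were tested with edgeR's quasi-likelihood test among 10748 genes, with Benjamini-Hochberg adjustment over all of them. None had an adjusted p under 0.05. Over all tested genes the share called was 0.344% (37 genes), 0.326% higher and 0.0186% lower, and a count of 0 in 10 genes is not apart from that share. The smallest adjusted p among the 10 genes was 0.212 by edgeR, for Id2. Calls by limma voom and DESeq2 were also 0 among the 10 genes, beside 454 and 197 over all tested genes. DESeq2 gave Smad7 no adjusted p (unadjusted p = 0.668). At an unadjusted p under 0.05 there were 2, Id2 (higher) and Tgfbr1 (lower), beside 15.9% of all tested genes (8.29% higher and 7.56% lower). Over the 10 genes the median log2 fold change was 0.02, beside a median of 0.01 over all tested genes, with 6 positive and 4 negative values. The groups separated without overlap for 0 of the 10 genes, beside 8.16% of all tested genes (4.63% higher and 3.53% lower).

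**Figure D1:**
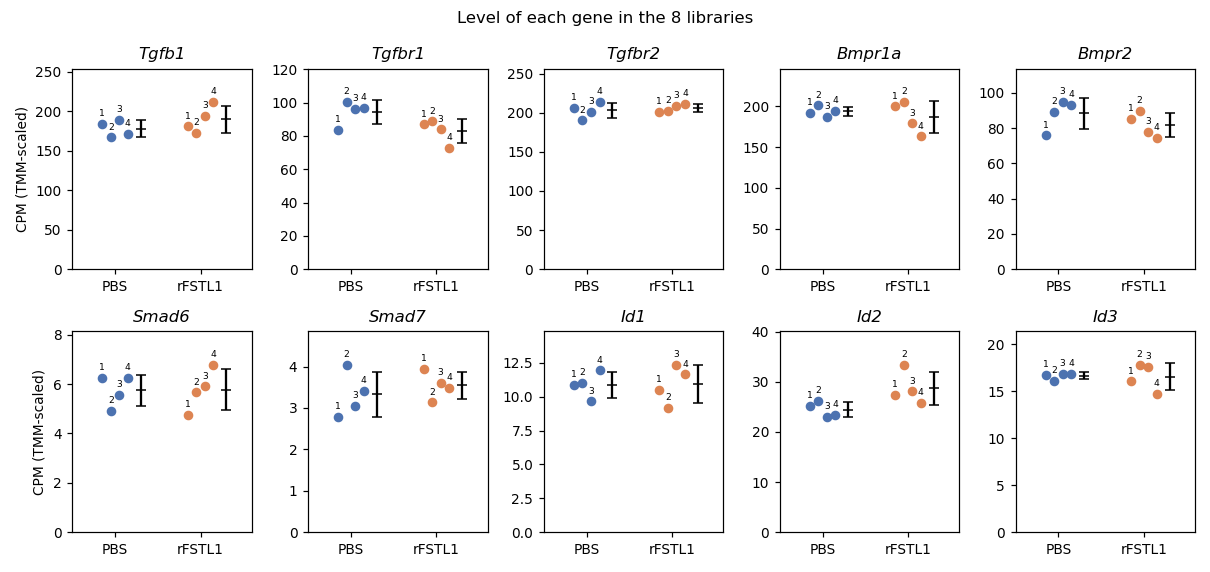
Level of each of the 10 genes in CPM (vertical axes, linear and starting at 0) in the 4 PBS and 4 rFSTL1 libraries. Points are libraries with their replicate number above, and bars are the mean and SD. The groups overlap in all 10 panels, and those of Id2 overlap in a single pair of libraries, PBS replicate 2 and rFSTL1 replicate 4.

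The Id genes were the first readout, because they are direct targets of BMP-activated Smads in many cell types. Id1 (ENSMUSG00000042745), often used as a reporter of BMP signaling, had 10.9, 11.02, 9.67 and 12.0 CPM in PBS replicates 1 to 4 and 10.5, 9.18, 12.4 and 11.7 CPM in rFSTL1 replicates 1 to 4. The lowest and the highest of the 8 values both came from rFSTL1 libraries, and the group means were 10.9 ± 0.938 and 10.9 ± 1.39 CPM (SD, n = 4 each). Its log2 fold change between the groups was 0.01 with a standard error (SE) of 0.11 (adjusted p = 0.959 by edgeR). The 95% confidence interval ran from a fold of 0.859 to one of 1.19. Leaving out single libraries gave -0.05 to 0.08 on the log2 scale (0.08 without rFSTL1 replicate 2, -0.02 without replicate 4, -0.05 without rFSTL1 replicate 3 and -0.04 without PBS replicate 3), so Id1 had no fixed sign.

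Id3 (ENSMUSG00000007872), the Id family member with the smallest spread under PBS, had 16.8, 16.1, 16.9 and 16.8 CPM under PBS and 16.0, 17.8, 17.6 and 14.7 CPM under rFSTL1. The rFSTL1 libraries lay on both sides of the PBS libraries. Its log2 fold change came to -0.01 (SE 0.08, adjusted p = 0.963 by edgeR), with an interval in fold from 0.88 to 1.12. The sign of this value was not fixed, since it was positive with upper-quartile scaling, with limma voom and without rFSTL1 replicate 4 (0.04), while it was -0.05 without replicate 2.

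Id2 (ENSMUSG00000020644), which in leukocytes is known for its part in lymphoid and dendritic cell development, was the member with the largest fold change. It had 25.2, 26.2, 23.0 and 23.4 CPM under PBS and 27.5, 33.4, 28.1 and 25.9 CPM under rFSTL1. Of the rFSTL1 libraries 3 lay above every PBS library, and replicate 4 fell just under PBS replicate 2. The means were 24.5 ± 1.53 and 28.7 ± 3.26 CPM (SD, n = 4 each). The log2 fold change came to 0.23 (SE 0.08, unadjusted p = 0.0132, adjusted p = 0.212 by edgeR), with an interval from 0.06 to 0.40. A two-sided exact permutation test on log2(CPM + 1) gave p = 0.0571, and 0.0286 is the smallest p that 4 against 4 libraries allow. Without rFSTL1 replicate 2, the library with the highest Id2 level, the log2 fold change was 0.14, and without replicate 4 it was 0.28. With library totals alone as the scale, the groups did not overlap (as for 8.56% of all tested genes) and the exact permutation p was 0.0286. The direction was kept in all 14 alternatives run, and the adjusted p ranged from 0.0923 to 0.423, so Id2 did not pass the threshold of 0.05 in any of them.

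Summed per kilobase of transcript, the Id genes reached 33.2 to 35.4 CPM per kb under PBS and 34.7 to 38.8 under rFSTL1. Id2 made up 33.6 to 37.6% of this sum under PBS and 36.9 to 43.7% under rFSTL1, and Id3 35.6 to 39.7% and 33.2 to 35.9%. The 3 genes did not move as a block between libraries: as deviations from the group means over the 8 libraries, Id2 ran with Id3 (Pearson r = 0.57) and against Id1 (r = -0.51). These are descriptions of 8 libraries that share a scaling. The genes whose pattern was most like that of Id2, the most abundant Id gene by CPM, were Ptbp2 (Pearson r = 0.98, Spearman rho = 0.88), Gtpbp10 (r = 0.97, rho = 0.90) and Fuca2 (r = 0.97, rho = 1). They are the highest of 10747 such values, taken as deviations from the group means over 8 libraries, and no p is given for a maximum. All 3 had negative log2 fold changes between the groups (-0.11, -0.22 and -0.04), while Id2 had a positive one, and none was called.

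The stretch of 250 bases before the annotated start is printed for the genes with an unadjusted p under 0.05, Id2 and Tgfbr1, and for Id3 as the Id gene with the log2 fold change nearest to 0. The sequences come from RefSeq's annotation of GRCm38.p6, whose table was matched by symbol for 8 of the 10 genes, in 9 windows, and not for Id1 and Smad7. Id2 lies on the minus strand at chr12:25096093-25096342, Id3 on the plus strand at chr4:136143572-136143821 and Tgfbr1 on the plus strand at chr4:47352972-47353221. Capitals mark the motifs GGCGCC, a GC-rich sequence bound by BMP-activated Smads, CAGAC, the Smad box, which reads GTCTG on the other strand, and CANNTG, the E-box bound by basic helix-loop-helix factors. Both strands were searched, and the marked matches do not overlap each other.
Id2: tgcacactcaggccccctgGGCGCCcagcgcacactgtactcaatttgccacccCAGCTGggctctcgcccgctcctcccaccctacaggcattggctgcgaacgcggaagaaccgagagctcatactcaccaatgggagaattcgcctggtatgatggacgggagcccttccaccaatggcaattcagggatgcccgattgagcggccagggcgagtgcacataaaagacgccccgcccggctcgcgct
Id3: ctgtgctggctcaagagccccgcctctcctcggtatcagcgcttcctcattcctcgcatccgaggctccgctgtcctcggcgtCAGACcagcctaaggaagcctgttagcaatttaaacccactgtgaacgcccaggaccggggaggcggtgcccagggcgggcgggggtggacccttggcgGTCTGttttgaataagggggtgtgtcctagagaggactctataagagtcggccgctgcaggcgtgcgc
Tgfbr1: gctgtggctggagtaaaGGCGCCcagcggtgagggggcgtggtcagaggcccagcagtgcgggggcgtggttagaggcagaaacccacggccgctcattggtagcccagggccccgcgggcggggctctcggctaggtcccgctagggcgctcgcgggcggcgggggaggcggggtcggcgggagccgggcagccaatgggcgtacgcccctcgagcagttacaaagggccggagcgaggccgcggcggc
The Id2 window held 1 GGCGCC, whose left end lay 231 bases before the start, and 1 E-box at 196 bases. In the Id3 window there were 2 Smad boxes, at 167 and 68 bases, and no GGCGCC. The printed Tgfbr1 window, the first of 2, held 1 GGCGCC at 233 bases. The second, before another annotated start of Tgfbr1 at chr4:47385966-47386215, held no GGCGCC but 1 CAGAC at 203 bases and 1 E-box at 238 bases. Over the 9 windows GGCGCC was found in 4 (Id2, Tgfbr1, Bmpr1a and Bmpr2), against 9.59% of 32817 windows of the same length over all genes, which are not matched for GC content. CAGAC was in 3 of the 9 (42.2% of all windows), the E-box in 2 (66.2%) and the palindrome GTCTAGAC in 0 (0.168%). A match is a description of these letters and does not show a bound site.

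Smad6 and Smad7 encode the inhibitory Smads, which compete for the receptors and are themselves switched on by BMP and TGF-beta signaling, so they are feedback readouts as well as regulators. Smad6 (ENSMUSG00000036867) had 6.25, 4.93, 5.58 and 6.24 CPM under PBS and 4.74, 5.67, 5.91 and 6.78 CPM under rFSTL1. The rFSTL1 range enclosed the PBS range. The log2 fold change of Smad6 was 0.02 (SE 0.14, adjusted p = 0.959 by edgeR), and its interval in fold ran from 0.824 to 1.25. Without single libraries it ran from -0.07 to 0.09, on both sides of 0, with 0.02 without rFSTL1 replicate 2, -0.07 without replicate 4 and -0.05 without PBS replicate 2. Smad7 (ENSMUSG00000025880) was the least abundant of the 10 genes, with 2.79, 4.04, 3.06 and 3.42 CPM under PBS and 3.94, 3.14, 3.61 and 3.49 CPM under rFSTL1. The rFSTL1 values lay inside the PBS range, and the log2 fold change came to 0.09 (SE 0.17, adjusted p = 0.825 by edgeR, fold interval 0.8291 to 1.37). Single libraries moved this value widely, to 0.01 without PBS replicate 1, 0.20 without PBS replicate 2, 0.13 without rFSTL1 replicate 2 and 0.10 without rFSTL1 replicate 4. Both genes had few counts. Smad7 had 46 to 73 counts in a library, for which counting alone gives a coefficient of variation of about 13.1%, beside 16.2% measured under PBS. For Smad6 the measured values were 11.02% under PBS and 14.5% under rFSTL1, beside 10% and 9.90% from counting alone, and for Smad7 under rFSTL1 it was 9.33%, beside 12.7%. The confidence intervals of Smad6 and Smad7 show which fold changes these libraries leave possible. How far depth set their width was not tested.

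Tgfb1 (ENSMUSG00000002603) was the 1 ligand among the 10 genes. TGF-beta 1 is secreted in a latent form and is a macrophage product known for dampening inflammation and promoting fibrosis. It had 184, 167, 189 and 172 CPM under PBS and 181, 173, 194 and 212 CPM under rFSTL1. Only rFSTL1 replicates 3 and 4 lay above the PBS range. The log2 fold change came to 0.09 (SE 0.06, adjusted p = 0.457 by edgeR), and it was 0.04 without rFSTL1 replicate 4 and was 0.13 without replicate 2. It was positive in all 14 alternatives.

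Tgfbr1 (ENSMUSG00000007613) encodes the type I TGF-beta receptor, the kinase that phosphorylates Smad2 and Smad3. Its level was 83.6, 100.4, 96.3 and 97.0 CPM under PBS and 87.1, 88.7, 84.0 and 72.7 CPM under rFSTL1. PBS replicate 1 lay below 3 of the rFSTL1 libraries, and the other PBS libraries lay above all of them. The means were 94.3 ± 7.34 and 83.1 ± 7.21 CPM (SD, n = 4 each). Tgfbr1 differed by -0.18 on the log2 scale (SE 0.07, unadjusted p = 0.0141, adjusted p = 0.213 by edgeR), with an interval from -0.33 to -0.04. The two-sided exact permutation p was 0.114. Without rFSTL1 replicate 4 the log2 fold change was -0.12 and without replicate 2 it was -0.22. Without PBS replicate 1 it was -0.24 (adjusted p = 0.126 by edgeR), and the groups no longer overlapped, as for 14% of all tested genes in that setting. Its sign was negative in all 14 alternatives, with adjusted p-values from 0.0922 to 0.465. Tgfbr1 did not pass the threshold of 0.05 in any of them.

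Tgfbr2 (ENSMUSG00000032440), the type II receptor that binds TGF-beta and activates Tgfbr1, was the most closely bounded of the 10 genes. It had 207, 190.4, 201 and 214 CPM under PBS and 201, 203, 209 and 211 CPM under rFSTL1, all rFSTL1 values inside the PBS range. The log2 fold change came to 0.02 (SE 0.04, adjusted p = 0.846 by edgeR, fold interval 0.951 to 1.08), and it was 0.02 without rFSTL1 replicate 2, 0.01 without replicate 4 and -0.01 without PBS replicate 2. In the summed level of both TGF-beta receptors per kilobase, Tgfbr1 took 36.3 to 42.6% under PBS and 32.6 to 38.1% under rFSTL1, ranges that overlap.

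Bmpr1a (ENSMUSG00000021796), a type I BMP receptor, had 192, 201, 187 and 194 CPM under PBS and 200, 205, 179 and 163 CPM under rFSTL1. The rFSTL1 libraries fell on both sides of the PBS range, replicates 3 and 4 below it and replicate 2 above. The log2 fold change came to -0.05 (SE 0.06, adjusted p = 0.702 by edgeR), -0.11 without rFSTL1 replicate 2 and 0.01 without replicate 4. Exons of Gm17110, on the opposite strand, overlap those of Bmpr1a in the GENCODE annotation, and whether the counting used strand is not given in the sources used here. Bmpr2 (ENSMUSG00000067336), the type II receptor that pairs with it, had 75.9, 89.3, 94.7 and 93.2 CPM under PBS and 85.0, 89.8, 77.9 and 74.3 CPM under rFSTL1. PBS replicate 1 was again low, and the groups overlapped. The log2 fold change of Bmpr2 was -0.11 (SE 0.07, adjusted p = 0.452 by edgeR), -0.17 without rFSTL1 replicate 2, -0.07 without replicate 4 and -0.19 without PBS replicate 1. In the summed level of Bmpr1a and Bmpr2 alone per kilobase, Bmpr2 took 15.4 to 19.0% under PBS and 16.4 to 17.4% under rFSTL1. Acvr1, another type I BMP receptor, is not in this sum, and its mean level was 8.36 CPM per kb.

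**Figure D2:**
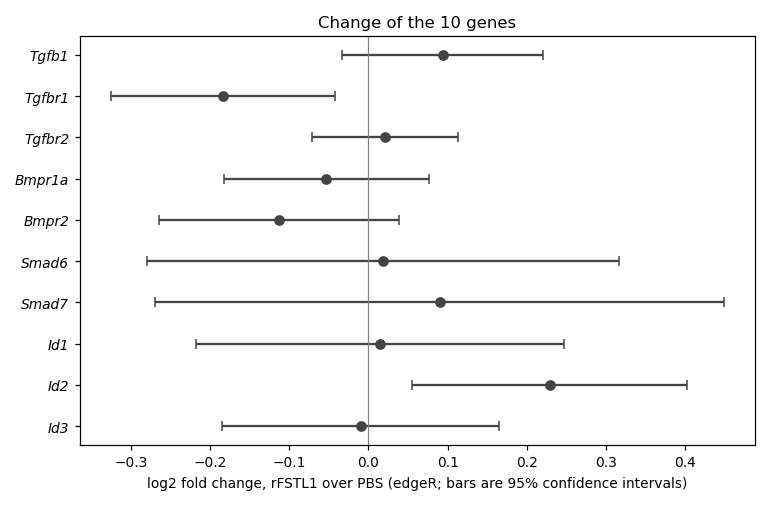
Log2 fold change of rFSTL1 over PBS (horizontal axis) for the 10 genes, with bars for the 95% confidence interval from edgeR's fit. The intervals of 8 genes include 0, those of Id2 (0.06 to 0.40) and Tgfbr1 (-0.33 to -0.04) do not, and none of the 10 genes passes adjustment over all tested genes.

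Within groups Tgfb1 varied against 3 of the 4 receptors. As deviations from the group means over the 8 libraries, Tgfb1 ran against Bmpr1a (Pearson r = -0.94), Tgfbr1 (r = -0.79) and Bmpr2 (r = -0.61) but with Tgfbr2 (r = 0.47), while Tgfbr1 ran with Bmpr2 (r = 0.87) and Bmpr1a (r = 0.74). Smad6 ran with Tgfbr2 (r = 0.84) and against Tgfbr1 (r = -0.74) and Bmpr1a (r = -0.70). The pairs named were chosen among 45 such coefficients after these were seen. These coefficients rest on 8 libraries with a shared scaling, in which rFSTL1 replicate 4 held both the lowest Bmpr1a and Tgfbr1 and the highest Tgfb1 level. The part of that library and of rFSTL1 replicate 2 in them was not tested.

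Levels were compared between genes as CPM per kb of the longest GENCODE transcript. Tgfb1 stood highest at 71.5 ± 5.62 CPM per kb (SD, n = 8), followed by Bmpr1a at 32.0, Tgfbr2 at 25.3, Tgfbr1 at 15.4, Id2 at 13.5, Id3 at 13.0, Id1 at 9.39 and Bmpr2 at 6.59. The inhibitory Smads were lowest, Smad6 at 1.94 and Smad7 at 0.803 ± 0.101 CPM per kb (SD, n = 8). In this order Tgfbr1 overlapped with Id2 over the 8 libraries and Id2 with Id3, and the other neighbors did not overlap. Tgfb1 was 89.0 times as high as Smad7. The value of Bmpr2 depends on its length of 12899 bases, since cells that use a shorter form would have a higher level per kb.

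**Figure D3:**
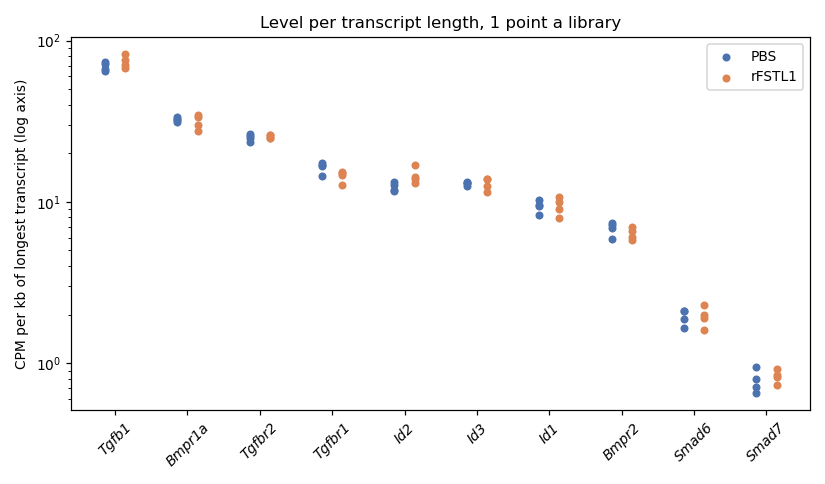
Level of each gene per kilobase of its longest annotated transcript (vertical axis, CPM per kb, log scale), ordered by the mean over 8 libraries, with 1 point a library colored by group. Tgfb1 is highest (71.5 CPM per kb on average) and Smad7 lowest (0.803), and the order of the genes spans a wider range than any difference between the groups.

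A list of 91 other genes of the pathway is given here, of which 43 passed the filter and 19 had no count in any library. All 14 other genes listed with the ligands, among them Bmp2, Bmp4, Bmp6, Bmp7, Inhba, Gdf15 and Bmp1, which encodes a procollagen proteinase and no ligand, stayed below the filter with at most 9 counts in a library, so Tgfb1 was the 1 ligand that could be tested. Of the 10 secreted antagonists, Twsg1, a BMP-binding protein, passed the filter at 92.6 ± 4.84 CPM with PBS and 89.8 ± 9.93 CPM with rFSTL1 (mean ± SD, n = 4 each). Fstl1 itself had 4, 2, 0 and 1 counts in the PBS libraries and 0 in each rFSTL1 library, and was not tested. PBS replicates 1 and 2, with 4 and 2 of these counts, were also the libraries with 5 and 7 counts of the fibroblast gene Dcn, and whether the traces share a source was not tested. Noggin (Nog), chordin (Chrd) and gremlin 1 (Grem1) had no counts.

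Of the 12 other receptors 7 were tested, led by Acvr1, a type I BMP receptor, with 28.3 ± 0.984 CPM with PBS and 26.8 ± 2.41 CPM with rFSTL1 (mean ± SD, n = 4 each). Smad1, Smad2, Smad3, Smad4 and Smad5 were tested and Smad9 had no counts. With TMM scaling their log2 fold changes ran from -0.08 to -0.01, and the smallest adjusted p was 0.593 by edgeR, for Smad2 (log2 fold change -0.05, SE 0.05). Among the 12 tested pathway inhibitors, 9 had positive and 3 negative log2 fold changes, and among the 8 tested cofactors 1 was positive and 7 were negative. Over all tested genes 5587 were positive and 5161 negative. Fkbp1a, whose product holds type I receptors inactive, was the most abundant of the inhibitors by CPM. It had 277 ± 6.50 CPM with PBS and 292 ± 16.5 CPM with rFSTL1 (mean ± SD, n = 4 each). For the handling of latent TGF-beta, Nrros, which anchors it on macrophages, differed by 0.06 on the log2 scale (SE 0.05, adjusted p = 0.595 by edgeR), 0.10 without rFSTL1 replicate 2 and 0.02 without replicate 4.

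Among the target genes, Bhlhe40, a transcription factor gene, differed by 0.16 on the log2 scale (SE 0.06, unadjusted p = 0.012, adjusted p = 0.207 by edgeR), and Klf10, an early TGF-beta response gene, had 0.04 (SE 0.07, adjusted p = 0.817 by edgeR). Tgfbi and Ccn2, both known TGF-beta targets, had at most 5 counts in a library.

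Of the 43 genes given here, 5 (11.6%) had an unadjusted p under 0.05, beside 15.9% of all tested genes. They were Bhlhe40, with a positive value, and Trim33, Map3k7, Usp9x and Tcf12, which had negative log2 fold changes of -0.16, -0.10, -0.11 and -0.14. Trim33 and Usp9x encode ubiquitin-system regulators of Smad4, Map3k7 the TGF-beta-activated kinase TAK1, and Tcf12 an E protein that Id proteins bind. For Trim33, Map3k7 and Tcf12 the rFSTL1 libraries all lay below the PBS libraries, which is 6.98% of the genes given here without overlap, beside 8.16% of all tested genes (3.53% lower). None of the 3 passed the adjusted threshold by edgeR. Tcf12, for example, had 182 to 199.7 CPM under PBS and 172 to 175 CPM under rFSTL1 (adjusted p = 0.159 by edgeR). Under limma voom with sample quality weights Trim33 passed at an adjusted p of 0.0464, and over the other 13 alternatives it did not pass (adjusted p up to 0.477). Leaving out single libraries gave log2 fold changes of -0.20 to -0.10 for Trim33, -0.16 to -0.12 for Tcf12 and 0.12 to 0.19 for Bhlhe40. In bulk samples, fewer cells expressing a gene and less RNA per cell cannot be told apart.

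**Figure D4:**
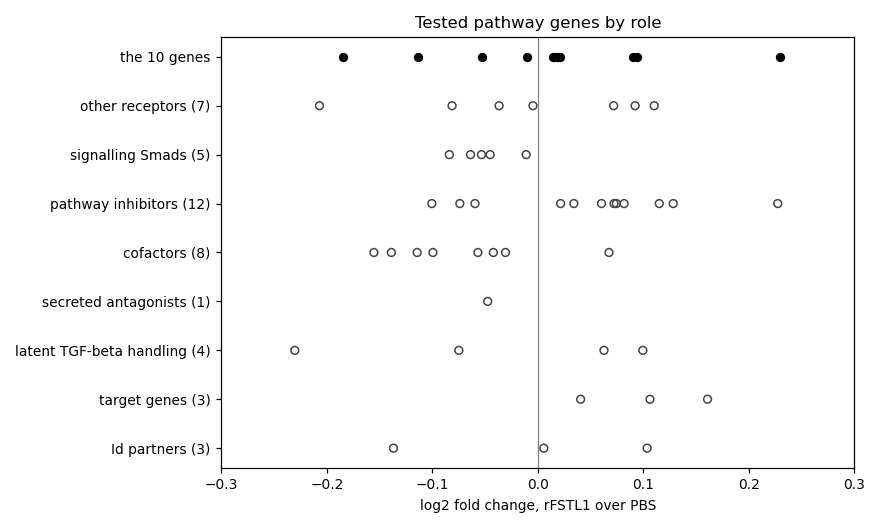
Log2 fold change of rFSTL1 over PBS (horizontal axis) for the 10 genes and for the 43 tested genes of the wider list given here, by role, with the number of genes in brackets. Each point is a gene, and the values drawn run from -0.23 to 0.23.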

How the data were processed

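The authors enriched mRNA with oligo(dT) beads, sequenced it on an Illumina instrument and deposited estimated counts for 22013 Ensembl genes in 8 libraries, without normalization. The submitters' processing notes name Bowtie2 2.2.8, HISAT2, StringTie 1.3.1 and DESeq2. The genome build, the annotation and the strand setting are not given in the sources used here. Of the nonzero values 13% were not whole, and all were rounded. The planned tests for whole counts were kept.

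Genes were kept by filterByExpr (minimum count 10; 10748 genes), scaled by TMM and compared with edgeR 4.0.16 (glmQLFit, glmQLFTest; R 4.3.3), calling genes at a Benjamini-Hochberg adjusted p under 0.05. Standard errors and 95% intervals were computed from the fold change and the F statistic. Exact tests ran over all 70 assignments of the libraries. Lengths came from the GENCODE M21 annotation. Some genes of the lists, including a gene past the threshold, are not reported here, and the list counts are given without them. The 10 genes, the lists and the tests were chosen with earlier results of these data known. All 10 genes are named. From the wider list, genes were named if p was under 0.05 or if they had the highest mean CPM in their role, and further genes named for their role (such as Klf10, Smad1, Fstl1 and the ligands) were chosen after their values were seen. The test was tested on simulated data, where it recovered 94% of log2 changes of size 1 and 80.8% of those of size 0.5. Of its calls there 6.95% were false. Changes as small as those of the 10 genes were not simulated. Alternatives were DESeq2 1.42.0, limma 3.58.1 voom with sample quality weights, other scalings, no filter, a replicate block and leaving out each library. The same-numbered libraries had correlations of their deviations from the group means of -0.09 to 0.08. The labels do not say whether same-numbered libraries were handled together, and these values cannot decide it.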

Additional observations from a re-analysis of the deposited data

Results flagged for a closer look

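In PBS replicate 2, Id3 stood at 16.1 CPM, while PBS replicates 1, 3 and 4 held 16.8 to 16.9 CPM. The gap is large only against a very narrow range, and the value lies within that of the rFSTL1 libraries. It was the 1 such library among 40 groups of 4 that were examined, where chance would give about 2, since it marks about 1 group in 20. Without that library the log2 fold change of Id3 was -0.03, against -0.01 with it.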

How the results depend on the processing

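The count of the 10 genes past the threshold was 0 under every alternative run, while in the wider list as given here Trim33 was the 1 gene called under limma voom with sample quality weights. The count over all genes, 37 with edgeR, was 197 with DESeq2, 454 with limma voom, 56 with upper-quartile scaling, 124 without a filter and 133 at an adjusted p under 0.1. It was 11 (without PBS replicate 2) to 99 (without rFSTL1 replicate 1) when single libraries were left out. Of the 140 refitted fold changes of the 10 genes, 10 changed sign, none of them called, and 1 (Smad7 under DESeq2, unadjusted p = 0.668) had no adjusted p. For Id3 these were 0.0188 with limma voom and 0.00104 with upper-quartile scaling, and -0.0536 to 0.0445 without single libraries. Without single libraries the others that changed sign ran from -0.11 to 0.00727 (Bmpr1a), -0.00886 to 0.0402 (Tgfbr2), -0.0695 to 0.0898 (Smad6) and -0.0517 to 0.0811 (Id1), and from -0.12 to 0.0108 for Twsg1. The number of the 10 genes whose groups did not overlap, 0 with TMM, was 1 with library totals alone (Id2, exact permutation p = 0.0286) and 0 to 2 without single libraries (Bmpr2 and Tgfbr1 without PBS replicate 1, Id2 without PBS replicate 2 or rFSTL1 replicate 4). Over all tested genes the groups did not overlap for 8.56% with library totals and for 9.92 to 15.3% without single libraries. For each of these shifts the cause was not tested. A replicate block in the edgeR fit gave calls for 0 of the 10 genes and 41 of all genes, with log2 fold changes of 0.23 for Id2 and -0.18 for Tgfbr1, and it changed no call of the 10 genes or of the 10 refitted genes of the wider list. Leaving out single libraries moved Smad7 over the range 0.00988 to 0.20. Among the 10 genes Smad7 and Smad6 had the fewest counts, 46 to 132 in a library.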

Other observations

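Among the genes of the wider list and the marker lists that stayed below the filter, several had counts in PBS replicates 1 and 2 and nearly nowhere else. They were noticed after the values were seen and are given without a test. Dcn, a collagen-binding proteoglycan of fibroblasts, had 5 and 7 counts in these 2 libraries, Ccn2, a matricellular growth factor, had 5 and 5, and Ltbp1, which binds latent TGF-beta in the matrix, had 4 and 3, and all 3 genes were at 0 in the other 6 libraries. Col3a1, a fibrillar collagen, had 7 and 4 counts there and 1 in rFSTL1 replicate 4. Fstl1 had 4 and 2 counts there, 1 in PBS replicate 4 and 0 in the rFSTL1 libraries. Col1a1 had 3 and 1 there and 1 each in rFSTL1 replicates 1 and 4, so it did not separate the libraries as clearly. In the other direction, Tgfb3, a ligand, had 1, 1, 2 and 1 counts with PBS and 3, 2, 4 and 9 with rFSTL1, and Tgfb2 had 0 in every PBS library and 0, 1, 1 and 6 with rFSTL1. Counts of this size are near the limit of detection.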
